A study of Rattus norvegicus with 10 samples.

Results

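The calcium/calmodulin-dependent kinases of the rat prefrontal cortex were described by every probe set that the array annotation assigned to exactly 1 of the symbols Camk1, Camk2a, Camk2b, Camk2d, Camk2g, Camk4, Camkk1, Camkk2 and Camkv. This rule gave 19 of the 31042 probe sets that were not array controls, with at least 1 probe set for 9 of 9 genes. The samples were 10 male rats of the inbred Lewis strain, each contributing 1 Affymetrix array of RNA from cortical areas Fr1 and Fr2, and none had been treated. They came from an experiment in which 40 rats were tested for behaviour, and they were killed 6 days after the last test. The labels give each rat scores for sugar feeding, prepulse inhibition (the damping of startle by a weaker sound just before it), locomotion and acoustic startle, and 7 rats a plus maze score, all without a unit. All rats formed 1 group, so expression was related to each score and to differences between rats. The rats are numbered by the labels' replicate numbers, which say nothing of order.

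When calcium enters a neuron it binds calmodulin, which in turn opens and activates this family of serine/threonine kinases. Camk2a, Camk2b, Camk2d and Camk2g encode the alpha, beta, delta and gamma subunits of CaMKII, a holoenzyme that phosphorylates itself, stays active after the calcium signal and is needed for long-term potentiation at glutamatergic synapses. Camkk1 and Camkk2 encode the upstream kinases that phosphorylate CaMKI (Camk1) in the cytoplasm and CaMKIV (Camk4) in the nucleus, where CaMKIV acts on the transcription factor CREB. Camkv encodes a kinase-like protein of vesicles and synapses that binds calmodulin and lacks catalytic activity.

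Promoter sequences are shown for 3 genes: Camk2a and Camk4, whose probe sets varied most between rats and in part together, and Camk2b, whose signals varied little. Each is the 250 bases before the gene's start in the RefSeq annotation of the GRCr8 assembly, which is not the Lewis genome, printed 5′ to 3′ on the gene's strand. They lie at chr18:56648930-56649179 on the plus strand (Camk2a), chr18:24856902-24857151 on the plus strand (Camk4) and chr14:85147945-85148194 on the minus strand (Camk2b). Capitals mark the letters of the core of a CREB site, TGACG or CGTCA on the other strand, and of a GC box, GGGCGG or CCGCCC on the other strand, where overlapping copies run together.
Camk2a: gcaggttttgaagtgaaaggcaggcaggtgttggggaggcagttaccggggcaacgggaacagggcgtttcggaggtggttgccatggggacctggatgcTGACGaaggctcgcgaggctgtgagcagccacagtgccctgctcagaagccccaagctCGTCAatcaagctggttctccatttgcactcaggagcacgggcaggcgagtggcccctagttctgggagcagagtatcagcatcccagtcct
Camk4: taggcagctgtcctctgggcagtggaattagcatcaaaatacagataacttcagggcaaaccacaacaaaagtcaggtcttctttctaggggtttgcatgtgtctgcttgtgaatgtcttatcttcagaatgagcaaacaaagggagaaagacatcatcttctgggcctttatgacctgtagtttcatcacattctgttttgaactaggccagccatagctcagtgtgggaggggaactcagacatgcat
Camk2b: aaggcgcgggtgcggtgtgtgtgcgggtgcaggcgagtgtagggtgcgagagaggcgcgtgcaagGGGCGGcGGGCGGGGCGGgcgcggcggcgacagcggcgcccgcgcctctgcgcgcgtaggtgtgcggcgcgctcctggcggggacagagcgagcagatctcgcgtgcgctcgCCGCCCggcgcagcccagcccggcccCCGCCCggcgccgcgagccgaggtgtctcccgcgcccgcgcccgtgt

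The Camk2a window was 60.4% G and C and held 2 CREB cores and 0 GC boxes. The Camk4 window was 44.4% G and C and held 0 copies of either motif. The Camk2b window was 80.4% G and C and held 5 GC boxes and 0 CREB cores. Of 33469 rat promoter windows of the same length, 18.2% held at least 1 CREB core and 30.5% at least 1 GC box, and the median content of G and C was 51.2%. These matches describe letters only.

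The arrays correlated at r of 0.996 to 0.999 in pairs and had medians of 3.91 to 4.02 on the log2 scale, and their number limits the precision of every estimate. The tissue label was checked on markers. Slc17a7, the vesicular glutamate transporter of cortical excitatory neurons, had a lowest log2 signal of 12.50, a median of 12.73 and a highest of 12.86. Drd1, a dopamine receptor abundant in striatal projection neurons, had a lowest signal of 5.79, a median of 6.76 and a highest of 9.60. The striatal list held 13 markers, of which 10 were tested, and rats 4, 7 and 10 lay above every other rat for 8 of the 10. Rat 7 was highest for 9 of these 10 markers and for 10 of 11 tested myelin markers, and lowest for 3 of 5 tested markers of excitatory cortical neurons. The summed log2 signal of the 10 striatal markers ran from 77.1 in rat 2 to 95.1 in rat 7. Rat 7 also had the widest gap between the 3′ and 5′ control probe sets for actin, 2.59 against 2.22 to 2.38 in the other rats, a gap that widens when RNA is degraded. Its gap for GAPDH was the widest too, 0.32 against 0.06 to 0.29. Results that rest on rat 7 are therefore also given without it, where this was computed.

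Of the 19 kinase probe sets, 17 were among the 15521 with the highest mean signal that entered the tests. The other 2 stood low on every array, with a mean log2 signal of 3.06 for Camkk2 1375025_at and 1.58 for Camk2d 1368833_at. Probe sets differ in how well they bind their target, so the order of signals that follows is not an order of RNA abundance. By mean log2 signal it ran Camk2b 1398251_a_at (12.87), Camk2b 1375575_at (12.17), Camk2g 1369993_at (12.07), Camk2a 1388187_at (11.84), Camkv 1368846_at (10.70), Camk2a 1381637_at (10.23), Camk2d 1368834_at (10.19) and Camkk1 1368156_at (9.89). Below these came Camk4 1369752_a_at (9.22), Camk2a 1389824_at (9.18), Camk4 1369753_at (9.07), Camkk2 1368753_at (8.97), Camkv 1368845_at (8.76), Camk2a 1368935_at (8.33), Camk2d 1371263_a_at (7.77), Camk1 1367889_at (7.66) and Camk2g 1381936_at (4.84). Of the 18 neighbouring pairs in the full order, 11 had ranges over the rats that overlapped and 7 did not. The signal of the strongest Camk2b probe set lay above that of every other kinase probe set in all 10 rats.

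**Figure D1:**
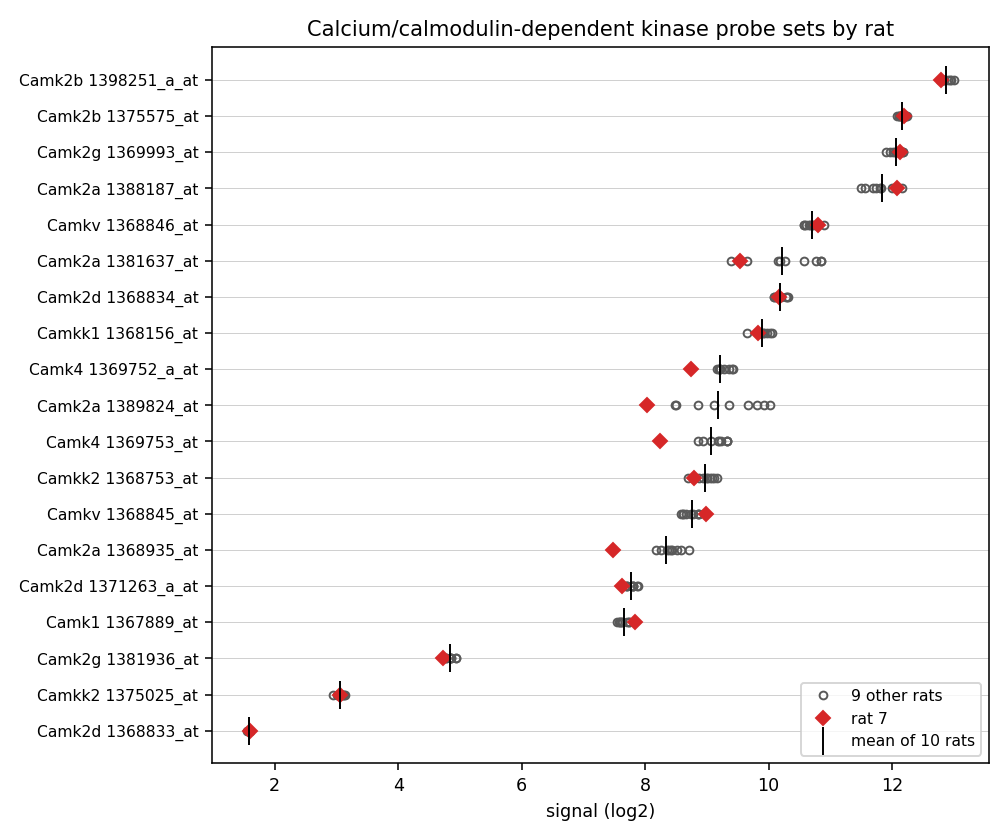
Log2 signal (x axis) of the 19 kinase probe sets (rows, ordered by mean signal) in each of 10 rats. Open circles are 9 rats, the red diamond is rat 7 and the black bar is the mean; rat 7 sits apart below the others for Camk4 1369752_a_at, Camk4 1369753_at and Camk2a 1368935_at.

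Most kinase signals differed little between rats, and so did most signals of all tested probe sets. The fold span, the highest over the lowest rat on the linear scale, was under 1.4 for 11 of the 17 tested kinase probe sets, against 57.9% of all tested probe sets. The median span was 1.32-fold over the 17 and 1.35-fold over all tested probe sets. Spans of at least 2-fold were found in 4 of the 17 kinase probe sets, 23.5%, and in 9.29% of all tested probe sets. These 4 were 3 probe sets of Camk2a and 1 of Camk4, and none was the strongest probe set of its gene. Without rat 7, Camk4 1369753_at and Camk2a 1368935_at spanned 1.39-fold and 1.46-fold. Camk2a 1381637_at and 1389824_at had an r of 0.96 over the rats. The 4 are therefore not separate cases, and the difference between the shares was not tested.

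Among the strongest probe sets of the CaMKII subunits, that of beta had the smallest SD. Camk2b 1398251_a_at had a lowest log2 signal of 12.78 in rat 9, a median of 12.84 and a highest of 13.00 in rat 4, a span of 1.16-fold with an SD of 0.07 (n = 10). Camk2b 1375575_at ran from 12.08 in rat 8 to 12.24 in rat 6, a span of 1.12-fold, and 93.5% of all tested probe sets had an SD at least as large. The rats formed a continuous range for each.
The gamma and delta subunits were close to this. Camk2g 1369993_at ran from 11.90 in rat 1 through a median of 12.08 to 12.18 in rat 2, a span of 1.21-fold. Camk2d 1368834_at ran from 10.09 in rat 4 through a median of 10.17 to 10.31 in rat 8, a span of 1.16-fold. The second probe sets, Camk2d 1371263_a_at and Camk2g 1381936_at, spanned 1.19-fold and 1.16-fold, and rat 7 was the lowest rat for each.

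Camk2a, the alpha subunit that dominates in forebrain excitatory neurons, held the 3 widest spans among the kinase probe sets, but not in its strongest one, and its 4 probe sets did not give the same order of rats. Camk2a 1388187_at, its strongest, had a lowest log2 signal of 11.49 in rat 8, a median of 11.82 and a highest of 12.16 in rat 6, a span of 1.59-fold (SD 0.23, n = 10). Camk2a 1381637_at had a lowest of 9.40 in rat 10, a median of 10.23 and a highest of 10.85 in rat 1, a span of 2.74-fold (SD 0.55). Camk2a 1389824_at had a lowest of 8.02 in rat 7, a median of 9.24 and a highest of 10.03 in rat 3, a span of 4.02-fold (SD 0.69). Only 1.09% of all tested probe sets had an SD at least as large as this one, and 2.06% one as large as that of Camk2a 1381637_at.
For Camk2a 1389824_at the log2 signals of rats 1, 2, 3 and 5 were 9.82, 9.93, 10.03 and 9.67, and those of rats 4, 7 and 10 were 8.51, 8.02 and 8.49. For Camk2a 1381637_at the same rats stood high, at 10.85, 10.85, 10.77 and 10.58, and low, at 9.66, 9.54 and 9.40. For Camk2a 1388187_at rat 7 was the second highest at 12.08, while rat 3 was the second lowest at 11.57. In this strongest probe set rats 4 and 10 stood at 11.75 and 11.81, near the median.
Camk2a 1368935_at followed a further order. Its lowest signal was 7.48 in rat 7, its median 8.40 and its highest 8.72 in rat 2, and the rat next to the lowest stood at 8.17. Its span of 2.35-fold fell to 1.46-fold without rat 7.

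**Figure D2:**
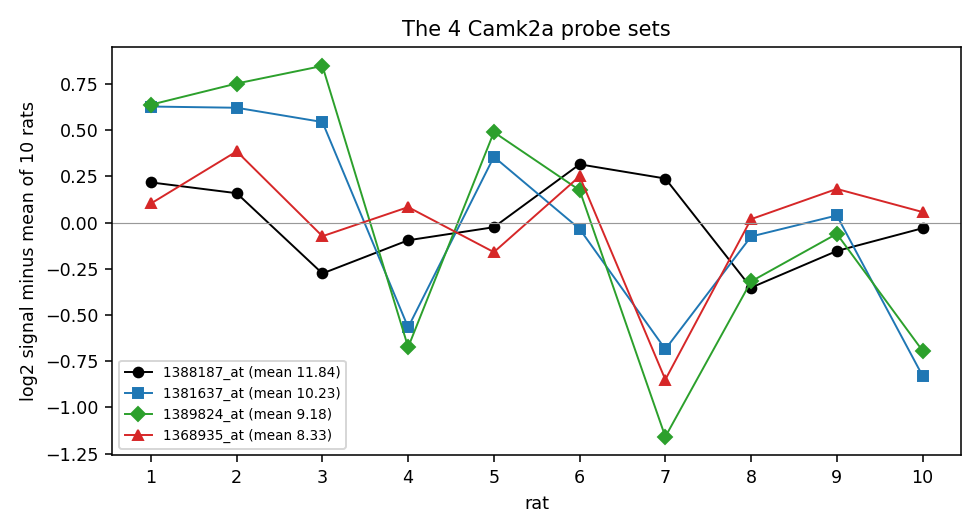
Signal of each Camk2a probe set minus its mean over the 10 rats (y axis, log2) by rat (x axis); lines join points of 1 probe set to guide the eye. Camk2a 1381637_at and 1389824_at are high in rats 1, 2, 3 and 5 and low in rats 4, 7 and 10, while 1388187_at does not share this pattern and 1368935_at is low in rat 7.

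Camk4, the nuclear kinase, was low in a single rat. Camk4 1369752_a_at had a lowest log2 signal of 8.74 in rat 7, a median of 9.21 and a highest of 9.42 in rat 2, and the other 9 rats lay at or above 9.17. Its span was 1.60-fold with rat 7 and 1.19-fold without it. Camk4 1369753_at had a lowest of 8.24 in rat 7, a median of 9.19 and a highest of 9.33 in rat 4, with spans of 2.13-fold and 1.39-fold. Rat 7 was the lowest rat for 6 of the 17 tested kinase probe sets and the highest for 2, while 13.1% of all tested probe sets were lowest in it and 13.1% highest.

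The upstream kinases were less variable. Camkk1 1368156_at ran from 9.65 in rat 1 through a median of 9.89 to 10.06 in rat 2, a span of 1.33-fold that fell to 1.17-fold without rat 1. Camkk2 1368753_at ran from 8.69 in rat 3 through a median of 9.00 to 9.16 in rat 6, a span of 1.38-fold. Camk1 1367889_at, the cytoplasmic target of these kinases, ran from 7.55 in rat 5 through a median of 7.63 to 7.83 in rat 7, a span of 1.22-fold.
The pseudokinase Camkv had a lowest log2 signal of 10.57 in rat 8, a median of 10.69 and a highest of 10.89 in rat 4 for 1368846_at, a span of 1.25-fold. Its second probe set, 1368845_at, ran from 8.59 in rat 9 to 8.98 in rat 7, a span of 1.32-fold.

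Probe sets of 1 gene share the gene and the rats, and their agreement was first described by Pearson's r over 10 rats. Of 11 pairs of tested probe sets of 1 gene, 5 had an r of at least 0.5. Camk2a 1381637_at and 1389824_at had an r of 0.96, but neither followed the strongest Camk2a probe set, with r of 0.0023 and -0.00082. The r between the strongest Camk2a probe set and 1368935_at was -0.09. The Camk4 probe sets had an r of 0.93, those of Camk2b 0.59 and those of Camkv 0.53. The Camk2d probe sets had an r of 0.19 and those of Camk2g -0.12. For Camk2a, Camk2d and Camk2g a statement on the gene therefore depends on the probe set read. The files do not say which transcript form each probe set reads.

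Whether different kinases rose and fell together across rats was first tested on the strongest probe set of each gene. Of 36 pairs, 0 passed an adjusted p of 0.05, and 1 had an unadjusted permutation p under 0.05. That pair was Camk4 1369752_a_at with Camkk2 1368753_at, the nuclear kinase with an upstream activator, at r of 0.68 (permutation p = 0.0260, adjusted p = 0.785) and Spearman's rho of 0.83 (permutation p = 0.00479, adjusted p = 0.172). Without rats 2 and 7, the farthest from the Camk4 median, r was 0.72. The median r over the 36 pairs was 0.20, and 28 of the 36 were positive. With all tested probe sets, the median r of a strongest probe set ran from 0.06 for Camkk1 1368156_at to 0.23 for Camk2b 1398251_a_at. A median of 0.20 therefore does not set the kinases apart.
The 17 tested kinase probe sets gave 136 pairs, a family added after the data had been seen, of which 11 joined probe sets of 1 gene and 125 those of different genes. In it 3 pairs passed at an adjusted p of 0.05 by r and 1 by rho, and by r 2 of the 3 were pairs of 1 gene, which say nothing of different kinases moving together. Camk2a 1381637_at and 1389824_at passed by both measures, at r of 0.96 (permutation p = 8e-05, adjusted p = 0.0068) and rho of 0.93 (permutation p = 0.00034, adjusted p = 0.0462), and r was 0.96 without rats 7 and 10. The pair of different genes, Camk4 1369752_a_at and Camk2a 1368935_at, had an r of 0.97 (permutation p = 0.0001, adjusted p = 0.0068) and a rho of 0.90 (permutation p = 0.00083, adjusted p = 0.0564). For this pair r was 0.86 without rat 7 and 0.78 without rats 2 and 7. It did not pass without rat 2, without rat 7 or after a further quantile normalization. The Camk4 probe sets passed by r alone, at 0.93 (permutation p = 0.00104, adjusted p = 0.0471) with a rho of 0.72 (permutation p = 0.0229, adjusted p = 0.395), and r was 0.69 without rat 7 and 0.63 without rats 2 and 7. Without rat 7, only the Camk2a pair of 1381637_at and 1389824_at passed among the 136.

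**Figure D3:**
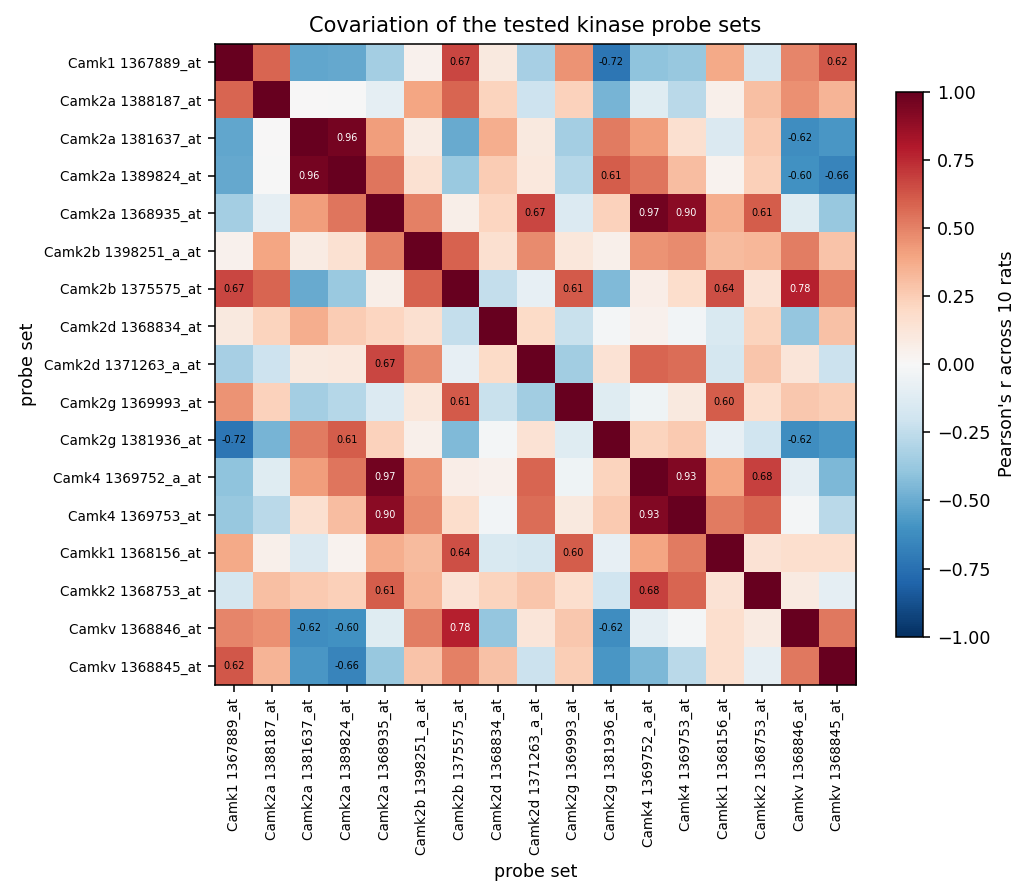
Pearson's r across 10 rats (colour, red positive and blue negative) between the 17 tested kinase probe sets, with r printed where it is at least 0.6 in size. Camk2a 1381637_at and 1389824_at pair at 0.96, while Camk2a 1388187_at pairs strongly with none. Camk4 1369752_a_at, Camk4 1369753_at and Camk2a 1368935_at pair at 0.90 to 0.97, and at 0.57 to 0.86 without rat 7 (not drawn).

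The kinase signals were then set beside measures of tissue makeup and array quality. In pieces of tissue, fewer cells of a type and less RNA per cell cannot be told apart. A marker score is the mean over a list of each marker's log2 signal minus its mean over the rats. For the strongest probe set of each gene and 3 measures (the striatal score, the myelin score and the level of spiked-in control RNA), 0 of 27 relations passed an adjusted p of 0.05, and 2 had an unadjusted permutation p under 0.05. Camk4 1369752_a_at had an r of -0.71 with the striatal score (permutation p = 0.0249, adjusted p = 0.425) and a rho of -0.52 (permutation p = 0.135, adjusted p = 0.756). This r was -0.29 without rat 7 and -0.16 without rats 2 and 7, so that it rested on rat 7. Camkv 1368846_at had an r of 0.68 with the myelin score (permutation p = 0.0314, adjusted p = 0.425) and a rho of 0.65 (permutation p = 0.0494, adjusted p = 0.756), and r was 0.77 without rats 4 and 8.

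Over all 17 tested kinase probe sets and 7 measures, a family of 119 relations also added after the data had been seen, 3 passed by r and 4 by rho. The 4 further measures were the score of excitatory cortical neurons, the mean signal of all tested probe sets with no gene symbol, and the gap between 3′ and 5′ control probe sets for actin and for GAPDH. Camk2a 1389824_at fell with the striatal score at r of -0.90 (permutation p = 0.00029, adjusted p = 0.0115) and rho of -0.90 (permutation p = 0.00084, adjusted p = 0.0333). Its r was -0.85 without rat 7 and -0.85 without rats 3 and 7. Its low rats 4, 7 and 10 had the highest striatal scores, 0.81, 1.27 and 0.45, and the other 7 rats lay between -0.53 and 0.07. Camk2a 1381637_at had an r of -0.85 with the same score, which missed the threshold (permutation p = 0.00196, adjusted p = 0.0532), and a rho of -0.92, which passed it (permutation p = 0.00067, adjusted p = 0.0333), and r was -0.82 without rats 7 and 10. With the myelin score, r was -0.85 for 1389824_at (permutation p = 0.00268, adjusted p = 0.0532) and -0.84 for 1381637_at (permutation p = 0.00381, adjusted p = 0.0585). Both missed the threshold, and r was -0.79 for each without rat 7. With arrays centred on their medians both passed, at r of -0.87 and -0.89 (adjusted permutation p = 0.0212 and 0.0182). After a further quantile normalization neither passed. The strongest Camk2a probe set had an r of 0.06 with the striatal score (permutation p = 0.871, adjusted p = 0.951) and a rho of -0.03 (permutation p = 0.946, adjusted p = 0.971), and r was 0.25 without rats 6 and 8. The part of tissue makeup in the Camk2a differences was not tested.

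Camk2a 1381637_at also rose with the mean signal of the probe sets without a symbol, at r of 0.92 (permutation p = 0.00011, adjusted p = 0.00952) and rho of 0.96 (permutation p = 7e-05, adjusted p = 0.00833). Its r was 0.88 without rats 7 and 10. Camk2a 1389824_at had an r of 0.83 with the same mean, which missed the threshold (permutation p = 0.00251, adjusted p = 0.0532), and a rho of 0.88, which passed it (permutation p = 0.00166, adjusted p = 0.0494), and its r was 0.94 without rats 3 and 7. That mean ran from 7.50 in rat 10 to 7.76 in rat 1. It was lowest in rats 4, 7 and 10, at 7.53, 7.55 and 7.50, against 7.59 or more in the others. These rats also had the highest striatal scores, so the relations of Camk2a with the score and with this mean cannot be told apart. Of the 50 probe sets most like Camk2a 1381637_at over the rats, 45 had no gene symbol, and of the 50 most like Camk2a 1389824_at, 41, against 10 of the 50 most like the strongest Camk2a probe set and 23.7% of all tested probe sets. Camk4 1369753_at rose with the score of excitatory cortical neurons at r of 0.96 (permutation p = 0.00016, adjusted p = 0.00952) and rho of 0.77 (permutation p = 0.0125, adjusted p = 0.165). Its r was 0.87 without rat 7 and 0.75 without rats 1 and 7. This Camk4 relation did not pass without rat 1 or after a further quantile normalization. Without rat 7, 0 of the 119 relations passed. Rat 7 had the lowest excitatory score, -0.31, against -0.12 to 0.13 in the other rats, and the Camk4 probe set had an r of -0.84 with the actin gap (permutation p = 0.0144, adjusted p = 0.156), a rho of -0.54 (permutation p = 0.113, adjusted p = 0.510) and an r of -0.36 without rats 1 and 7. Camk2b 1398251_a_at had an r of -0.81 with the GAPDH gap (permutation p = 0.00393, adjusted p = 0.0585), a rho of -0.82 (permutation p = 0.00556, adjusted p = 0.101) and an r of -0.63 without rats 2 and 4. With arrays centred on their medians that r was -0.95 and passed (adjusted permutation p = 0.00595). After a further quantile normalization it did not pass.

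**Figure D4:**
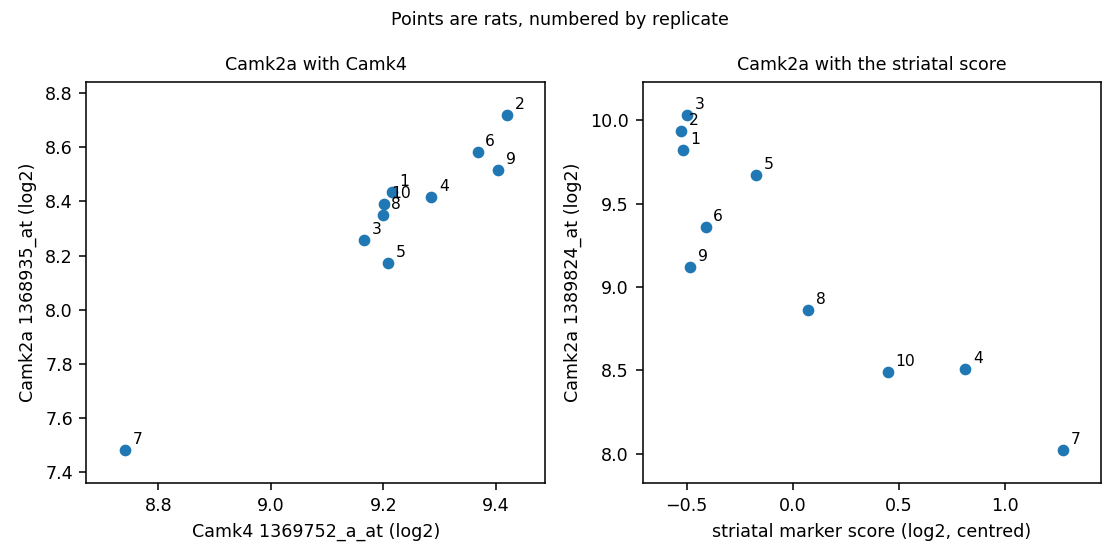
Left, log2 signal of Camk2a 1368935_at (y axis) against Camk4 1369752_a_at (x axis); right, Camk2a 1389824_at (log2, y axis) against the striatal marker score (centred log2, x axis). Each point is a rat with its number; rat 7 lies apart at the low end on the left, and rats 4, 7 and 10 have the highest scores and the lowest Camk2a signals on the right.

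The series asks how brain mRNA levels relate to behaviour, so each kinase probe set was fitted against each score with limma, with Benjamini-Hochberg adjustment over 15521 probe sets. A slope is the change in log2 signal for a score higher by 1 SD. By adjusted p, 0 of the 17 kinase probe sets passed in any of the 5 behaviours, and 0% of all tested probe sets did. At an unadjusted p under 0.05, 0 of the 17 passed in any behaviour, where 5.59% of all tested probe sets passed for startle, 2.93% for locomotion, 2.13% for sugar feeding, 7.41% for prepulse inhibition and 6.95% for the plus maze score. The SE of the kinase slopes ran from 0.03 to 0.22 for the 4 scores held by all 10 rats, and a slope that missed the threshold is not shown to be 0. Leaving out 1 rat moved 76 of the 85 slopes by over 1.5 times or turned them in sign, and 50 turned in sign.

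Startle ran from 363 in rat 2 to 943 in rat 7. Of the 17 slopes with it, 6 were positive and 11 negative, with a median of -0.03 against -0.02 over all tested probe sets. After a further quantile normalization 8 of the 17 were positive, and the medians were -0.01 and 0.0074. Camk2d 1371263_a_at had the smallest p, at a slope of -0.06 ± 0.03 (SE, n = 10; limma p = 0.0549, adjusted p = 0.808). Among the strongest probe sets, Camk2b 1398251_a_at had a slope of -0.05 ± 0.03 (limma p = 0.0898, adjusted p = 0.808), which was -0.0147 after that normalization. Camk2a 1388187_at had one of -0.0017 ± 0.0726 (limma p = 0.981, adjusted p = 0.998). Camk2a 1389824_at and 1381637_at had slopes of -0.31 ± 0.19 and -0.26 ± 0.15 (limma adjusted p = 0.808 for each). These were -0.16 and -0.18 without rat 7, and -0.15 and -0.14 once the striatal marker score was added to the model. Camk2a 1368935_at had a slope of -0.17 ± 0.09 (limma p = 0.100, adjusted p = 0.808), which was -0.04 without rat 7.

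Prepulse inhibition ran from 6.80 in rat 1 to 42.5 in rat 4. The 3 smallest p-values of the kinases belonged to Camk2a, with slopes of -0.36 ± 0.19 for 1389824_at (limma p = 0.0824, adjusted p = 0.701), -0.12 ± 0.06 for 1388187_at (limma p = 0.0936, adjusted p = 0.708) and -0.27 ± 0.15 for 1381637_at (limma p = 0.0952, adjusted p = 0.709). The slope of the fourth, 1368935_at, was -0.06 ± 0.10. All 4 read the same gene in the same rats, and none passed. With the striatal score as a covariate the slope of 1389824_at was -0.12, while that of 1388187_at was -0.14. Camk2d 1368834_at had a slope of -0.05 ± 0.03, and the strongest probe sets of Camk2g, Camkv, Camkk1 and Camkk2 had positive slopes of at most 0.03.

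Sugar feeding ran from 0 in rat 5 to 2.15 in rat 7. Camkk2 1368753_at had the smallest p, at a slope of -0.09 ± 0.04 (limma p = 0.0679, adjusted p = 1.00), which was -0.06 without rat 3, and Camk4 1369753_at followed at -0.17 ± 0.09 (limma p = 0.0873, adjusted p = 1.00), a slope that was -0.05 without rat 7. Camk1 1367889_at had a slope of 0.04 ± 0.03, which was 0.02 without rat 7. Camk2a 1388187_at had one of 0.08 ± 0.07, which was 0.04 without rat 8 and 0.13 without rat 3. Locomotion ran from 9420 in rat 10 to 17987 in rat 4. Camk2b 1398251_a_at had the smallest p there, at 0.05 ± 0.03 (limma p = 0.109, adjusted p = 1.00) with 10 rats and 0.02 without rat 4, followed by Camkv 1368846_at at 0.04 ± 0.03 (limma p = 0.235, adjusted p = 1.00). The Camkv slope was -1.41e-05 without rat 4. In the 7 rats with a plus maze score, which ran from 0 to 60.3, Camk1 1367889_at had the smallest p, at -0.07 ± 0.04 (limma p = 0.108, adjusted p = 0.778).

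**Figure D5:**
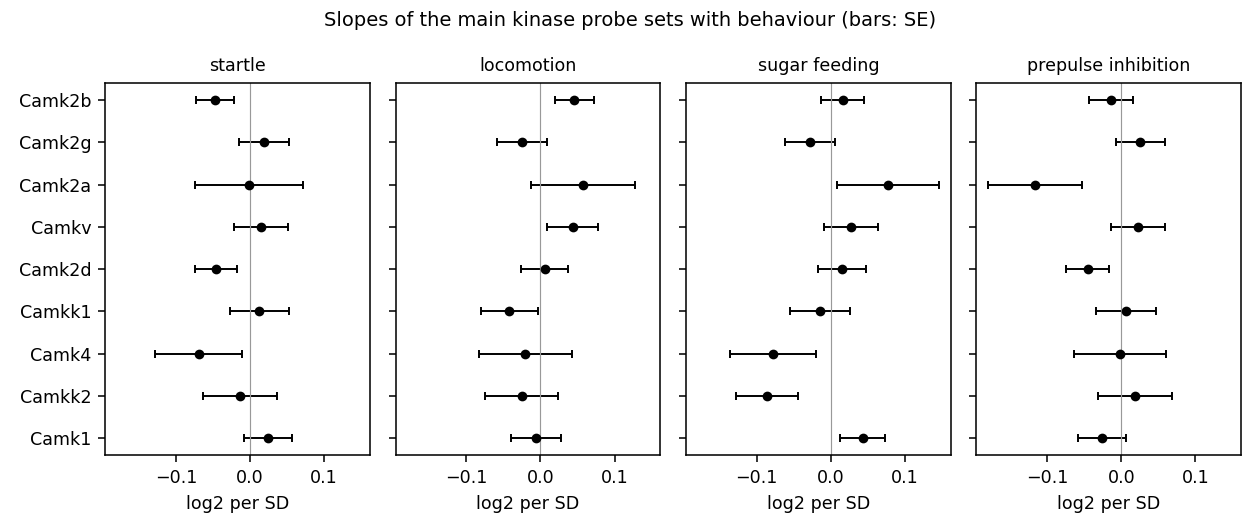
Slope of log2 signal per SD of the score (x axis) for the strongest probe set of each kinase gene (rows, by signal) with startle, locomotion, sugar feeding and prepulse inhibition; points are limma estimates over 10 rats and bars are 1 SE. Estimates lie between -0.12 and 0.08, and 0 of them passed an adjusted p of 0.05.

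Genes around the kinases were taken from a list of 50: calmodulin and the proteins that hold it, further calmodulin kinases and inhibitors of CaMKII, phosphatases, calcium channels, and targets. Of these, 42 had a tested probe set, and 0 of the 42 passed an adjusted p of 0.05 with any behaviour by limma. At an unadjusted p under 0.05 there were 2 for startle, 1 for locomotion, 0 for sugar feeding, 0 for prepulse inhibition and 3 for the plus maze score. These are 4.76%, 2.38%, 0%, 0% and 7.14% of the 42, where 5.59%, 2.93%, 2.13%, 7.41% and 6.95% of all tested probe sets passed in the same order. As 1 gene is 2.38% of the 42, the list's share was within 1 gene of that of all probe sets for every behaviour but prepulse inhibition. There it was lower. The genes of smallest p in each direction are given as values only. Lrrc7, a scaffold of the postsynaptic density also called densin-180 that binds the CaMKII alpha subunit, had a slope of -0.20 ± 0.06 with startle (limma p = 0.00757, adjusted p = 0.808), and Gria1, the AMPA receptor subunit that CaMKII phosphorylates, one of -0.11 ± 0.05 (limma p = 0.0388, adjusted p = 0.808). Their log2 signals ran from 9.01 to 9.76 and from 11.41 to 11.98. Mylk, myosin light chain kinase, and Ppm1f, a phosphatase of CaMKII, had the smallest p-values among positive slopes with startle, at 0.05 ± 0.03 and 0.04 ± 0.03.
With locomotion, Tiam1, a Rac activator at spines, had a slope of 0.13 ± 0.04 (limma p = 0.0137, adjusted p = 1.00), Gria1 one of 0.10 ± 0.05, Mylk one of -0.03 ± 0.03 and Grin1, the common NMDA receptor subunit, one of -0.04 ± 0.05. With sugar feeding, the CREB family genes Creb1 and Crem had slopes of 0.05 ± 0.04 and 0.08 ± 0.07, and Camk2n1, a CaMKII inhibitor, and Nrgn, neurogranin, which holds calmodulin, slopes of -0.09 ± 0.05 and -0.07 ± 0.04. With prepulse inhibition the slope was 0.10 ± 0.05 for Camk2n1 and 0.10 ± 0.06 for Pcp4, a calmodulin-binding peptide, and -0.09 ± 0.04 for Gap43 and -0.10 ± 0.05 for Gria1. With the plus maze score Hdac4, a deacetylase that CaM kinases phosphorylate, had a slope of 0.10 ± 0.03 (limma p = 0.0248, adjusted p = 0.682), Camk1g one of 0.03 ± 0.03, Atf1, a CREB relative, one of -0.18 ± 0.05 (limma p = 0.00751, adjusted p = 0.652) and Pnck, a kinase of the CaMKI group, one of -0.12 ± 0.05 (limma p = 0.0453, adjusted p = 0.714).
The median slope of the 42 was -0.02 for startle, 0.01 for locomotion, 0.02 for sugar feeding, -0.01 for prepulse inhibition and -0.02 for the plus maze score, against -0.02, 0.01, 0.01, -0.01 and -0.01 over all tested probe sets. The median fold span of the 42 was 1.29. Grin2b, the NMDA receptor subunit that docks CaMKII, had the widest span, 2.07-fold, with its lowest signal of 8.43 in rat 7 and its highest of 9.48 in rat 2.

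For each kinase the genes of most similar pattern were those of highest Pearson's r over the 10 rats, given with no test. The search covered the 8483 genes with a tested probe set, leaving out the 9 kinase genes. Camk4 1369752_a_at was closest to Dnm1, encoding a dynamin of synaptic vesicle recovery, at 0.96, to Tafa1 at 0.95 and to Pclo, encoding piccolo of the presynaptic active zone, at 0.95. Camk2a 1388187_at was closest to Itih3 (0.95), Rpl7a (0.93) and Ppp2r5c (0.93). Camk2b 1398251_a_at was closest to Glyr1 (0.97), Agfg1 (0.97) and Slc30a1 (0.92), and Camk2g 1369993_at to Celsr2 (0.94), C12h12orf43 (0.92) and Narf (0.90). Camk2d 1368834_at had lower values, with Mphosph6 (0.88), Tmem165 (0.88) and Reps1 (0.86).
Camkk1 1368156_at was closest to Stac2 (0.94), Ptgfrn (0.93) and Tnip1 (0.92), and Camkk2 1368753_at to Cast (0.93), Bhlhe40 (0.92) and Nemf (0.89). Camk1 1367889_at was closest to Stk3 (0.96), Naa38 (0.90) and Mocs2 (0.90), and Camkv 1368846_at to Endod1 (0.96), Nrep (0.94) and Shb (0.94). No gene stood in the nearest 3 of more than 1 of these 9 probe sets. Of the other probe sets, looked at after their values were seen, Camk2a 1368935_at had Tafa1 (0.98) and Pclo (0.96) among its nearest 3, as Camk4 1369752_a_at did, and Camk2a 1381637_at and 1389824_at both had Plekha6 (0.96 and 0.97). Each value is among the highest of a search over all these genes in 10 rats. The share of all tested probe sets at r of at least 0.8 was 2.34% for Camk4 1369752_a_at, 1.15% for Camk2a 1388187_at and 0.155% for Camk2d 1368834_at.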

How the data were processed

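The authors deposited a log2 signal for each probe set and rat, made with GCRMA under R 2.6.2 per the submitters' processing notes; GCRMA corrects background by probe sequence, normalizes by quantiles and summarizes the probes of a set. No version of GCRMA is given in the sources used. The table held 31099 probe sets, and 57 array controls were set aside. The 50% with the highest mean (15521, mean log2 of at least 3.99) were tested. Gene symbols came from the platform annotation; the gene numbers of 20758 of 20826 probe sets with 1 symbol, and of all 19 kinase probe sets, were found in RefSeq GRCr8.

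Slopes on each score, scaled to an SD of 1, were fitted by lmFit and eBayes of limma 3.58.1, under R 4.3.3 (two-sided, Benjamini-Hochberg over 15521, threshold 0.05). The fit was tested on simulated data. Correlations were tested with two-sided permutation tests of 100000 resamples and adjusted within each family, and repeated without the 2 rats farthest from the median of the first-named measure. The strongest probe set of a gene is that of highest mean. All kinase probe sets are named, with the 2 listed pathway genes of smallest p in each direction per behaviour and the 3 most similar genes per strongest probe set; pathway genes of wide span and genes of the marker lists were named after their values were seen. The members and lists were chosen with earlier results of these data known. Alternatives covered the filter, normalization, ranks, covariates, the variance model, the test and left-out rats. Each rat is a separate animal with 1 array; no technical replicate was analysed here.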

Additional observations from a re-analysis of the deposited data

Results flagged for a closer look

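Of the 17 tested kinase probe sets, 3 had a rat far from the other 9, and it was rat 7 at the low end each time. Camk4 1369752_a_at stood at 8.74 on the log2 scale in that rat, against 9.17 to 9.42 in the other rats. Camk4 1369753_at stood at 8.24, against 8.86 to 9.33. Camk2a 1368935_at stood at 7.48, against 8.17 to 8.72. The gap to the next rat was 0.626, 0.565 and 0.558 of the whole range over rats in that order, and chance alone gives a gap past the limit used in about 1 of 20 groups. The share of all tested probe sets past that limit was not computed, so the count of 3 has no background on these arrays. Rat 7 was the lowest rat for 13.1% of all tested probe sets. Probe sets of Camk4 share the gene, and all 3 share the rat. Rat 7 also had the highest striatal score, 1.27, the lowest score of excitatory cortical neurons, -0.31, and the widest actin and GAPDH gaps, 2.59 and 0.32. The part of these in the low signals was not tested. Camk2a 1388187_at stood at 12.08 in the same rat, its second highest value.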

How the results depend on the processing

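No paired analysis was possible because every animal has 1 array and 1 set of scores, with nothing to pair it to. In 88 fits of a behaviour under a setting, 0 had a kinase probe set past the adjusted threshold, and the kinase probe sets with an unadjusted p under 0.05 numbered 0 to 3 of 17 in a fit. The 3 came for startle without rat 4, where 1323 of all 15521 tested probe sets had one. Over all probe sets 1 passed for locomotion without the 3 rats of highest striatal score. Only 17 of the 85 slopes were followed through the settings here, and those of the 17 that changed sign were all far from the threshold. Over all 85 slopes, 50 turned in sign with 1 rat left out. Camk2a 1388187_at with startle was 0.0330 after a further quantile normalization, 0.0256 on ranks, 0.0807 when the spike-in level entered the fit, and -0.0457 to 0.0432 with 1 rat left out. Camkv 1368846_at with locomotion was -0.0051 without the 3 rats and -1.41e-05 to 0.0611 with 1 rat left out. Camk2a 1368935_at with prepulse inhibition was 0.0452 with the striatal covariate and -0.0834 to 0.00603 with 1 rat left out. A further quantile normalization split the unadjusted startle results over all probe sets into 559 positive and 316 negative, against 199 and 668 as deposited; locomotion into 181 and 280, against 359 and 96; sugar feeding into 163 and 202, against 225 and 105; and prepulse inhibition into 606 and 517, against 305 and 845. There 11 of the 17 kinase slopes were positive, against 6 as deposited.

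Relations of the strongest probe sets with measures gave 0 to 1 past the threshold with 1 rat left out (Camkk2 with the striatal score, r of -0.89, without rat 3). With the tested probe sets of each gene averaged in their place, 1 passed (Camk2a with the striatal score, r of -0.92, adjusted permutation p = 0.00567). That average took in Camk2a 1389824_at and 1381637_at, with SDs of 0.69 and 0.55 and r of -0.90 and -0.85 with the score. The strongest Camk2a probe set alone, with an SD of 0.23, had an r of 0.06. The pairs of all tested kinase probe sets gave 1 after quantile normalization, 0 without the 2 farthest rats and 1 to 4 with 1 rat left out, where rats 2, 5 and 7 each left 1. Relations with 7 measures gave 9 with arrays centred on their medians and 0 to 7 with 1 rat left out, 0 without rat 7, 1 without rat 4, 5 without rat 3 or 9 and 7 without rat 10. Probe set pairs of 1 gene with r of at least 0.5 numbered 3 to 6 with 1 rat left out, 3 without rat 4. The span of Camk2g 1369993_at was 1.36-fold after quantile normalization, that of Camkk1 1368156_at 1.17 to 1.33 and that of Camk4 1369752_a_at 1.19 to 1.60 with 1 rat left out. The causes were not tested. The 2 kinase probe sets of low signal were not tested.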
